A study of Homo sapiens with 12 samples.

Results

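The genes described here are 40 genes of the DNA replication machinery, measured by bulk RNA-sequencing (RNA-seq) in RCC4 cells after knockdown of the hypoxia-inducible factors HIF-1 and HIF-2. They were taken as a fixed list of gene symbols, and all 40 were found among the 23106 genes counted and among the 13000 genes with enough reads to be tested. RCC4 cells are a line grown from a human clear cell renal cell carcinoma (ccRCC) that lacks the VHL tumour suppressor. Both HIF α-subunits are therefore stable in them without low oxygen. There were 4 groups of 3 replicates, each RCC4 cells harvested 48 h after reverse transfection with small interfering RNA (siRNA) at 2 nM in total. The control siRNA group received 2 nM of control (non-targeting) siRNA, the HIF1A siRNA group 1 nM of HIF1A siRNA with 1 nM of control siRNA, the HIF2A siRNA group 1 nM of siRNA against EPAS1 (the gene of HIF-2α) with 1 nM of control siRNA, and the double knockdown group 1 nM of each HIF siRNA and no control siRNA. A difference between the double knockdown and the control siRNA group therefore goes with both HIF siRNAs and with the absence of control siRNA, and these cannot be told apart. The study set out to find genes that depend on each HIF isoform, and its own text used the single knockdowns. All libraries came from 1 cell line, and the replicates are the paired biological replicates of the study's methods.

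Each round of DNA synthesis begins at origins marked by the origin recognition complex (ORC), where CDC6 and CDT1 load the ring-shaped MCM2-7 helicase. CDC45 and the GINS complex join MCM2-7 to form the active helicase, with MCM10 helping it to start. DNA polymerase α with its primase lays down primers, DNA polymerases δ and ε extend them on the sliding clamp PCNA that the RFC complex loads, replication protein A (RPA) coats the unwound single strand, FEN1 and LIG1 join the Okazaki fragments, and ribonucleotide reductase, thymidylate synthase and thymidine kinase supply deoxynucleotides. Most of these genes are transcribed as cells enter S phase, many of them under E2F transcription factors, and HIF-1 and HIF-2 are known to have opposing relations to MYC and to cell proliferation in ccRCC.

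Promoter sequences were examined because shared transcription in S phase is the textbook feature of these genes. RefSeq promoter windows (build GRCh38.p14, from 250 bases before to 50 bases after a transcription start) were matched by symbol for 34 of the 40 genes; MCM4, MCM5, GINS4, POLD3, RPA2 and RPA3 had no match. The E2F octamers TTTCCCGC and TTTGGCGC, searched on both strands, were found in at least 1 window of 15 of the 34 genes (44.1%), against 2.75% of the 27305 genes in the table. The windows of RPA1 and RRM2, the 2 genes whose RNA rose below, held neither octamer. CCAAT, the core of the CCAAT box, was present in 61.8% of the 34 genes and 39.7% of all genes, and ACGTG, the core of the hypoxia response element, in 35.3% and 24.9% (both strands; CACGTG counts once on each strand). TTTGAA, a further motif searched on both strands, went the other way, at 2.94% of the 34 genes and 18.2% of all genes. The base composition of the windows was not matched between the 34 genes and all genes. A match is only a run of letters and was not tested as a binding site. The stretches below show an E2F octamer, in capitals, from genes of different roles, read 5′ to 3′ on the gene's strand. They lie at chr6:52284898-52284927 (MCM3, minus strand), chr16:88803743-88803772 (CDT1, plus), chr16:58392455-58392484 (GINS3, plus), chr20:5126663-5126692 (PCNA, minus), chr19:48170440-48170469 (LIG1, minus) and chr14:49688201-49688230 (POLE2, minus).
MCM3: cggatggtacgTTTCCCGCcaccgcggggc
CDT1: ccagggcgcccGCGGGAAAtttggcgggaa
GINS3: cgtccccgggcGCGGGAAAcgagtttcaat
PCNA: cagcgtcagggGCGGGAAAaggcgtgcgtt
LIG1: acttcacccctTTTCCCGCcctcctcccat
POLE2: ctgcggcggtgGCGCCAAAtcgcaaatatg

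For comparison, the windows of RPA1 and RRM2 are represented by the motifs that they did hold. RPA1 is shown at chr17:1829896-1829925 with ACGTG in capitals and at chr17:1829914-1829943 with CCAAT in capitals (both plus strand). This ACGTG is part of the palindrome CACGTG, so it was counted on both strands, and it was not tested as a HIF site. RRM2 is shown with 3 CCAAT boxes of the same window, at chr2:10122604-10122633, chr2:10122634-10122663 and chr2:10122661-10122690 (plus strand).
RPA1, ACGTG: catgggtgggtcACGTGggccgcgcctcgg
RPA1, CCAAT: gccgcgcctcggCCAATgcggcggctgcgt
RRM2, upstream CCAAT: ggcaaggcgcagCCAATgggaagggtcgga
RRM2, middle CCAAT: ggcatggcacagCCAATgggaagggccggg
RRM2, downstream CCAAT: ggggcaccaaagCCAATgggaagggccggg

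The libraries held between 13263168 and 20451433 counted reads. Knockdown was seen in each group that received the siRNA. On the log2 scale HIF1A RNA fell by 2.39 after HIF1A siRNA and by 1.73 in the double knockdown, and EPAS1 RNA fell by 3.97 after HIF2A siRNA and fell by 4.15 in the double knockdown, all with adjusted p under 0.05 (edgeR's quasi-likelihood test, Benjamini-Hochberg adjustment over 13000 genes). HIF1A RNA was at 28.7 ± 4.09 CPM (counts per 1000000) in the double knockdown and 18.3 ± 3.62 CPM with HIF1A siRNA (SD, n = 3), a log2 difference of 0.66 that did not pass the test (adjusted p = 0.184). In control replicates 1 to 3 it was at 120, 58.2 and 112 CPM. The paired ratios of the double knockdown to control were 0.205, 0.557 and 0.270, so that replicate 2 showed the weakest fall. EPAS1 RNA was also lower with HIF1A siRNA, at 101, 107 and 134 CPM against 163, 138 and 171 CPM in the matching control libraries. It was lower in 3 of 3 pairs with no overlap of the groups, and its log2 fold change of -0.47 did not pass the test (95% confidence interval, CI, -0.80 to -0.14; adjusted p = 0.250). RCC4 cells had renal epithelial markers in every library, while PTPRC and CD3E of leukocytes and PECAM1 of endothelium were at 0 in all 12. The leukocyte marker LYZ was at 0.268 to 2.16 CPM. The endothelial markers CDH5 and VWF reached at most 0.432 and 0.390 CPM. The fibroblast and pericyte markers COL1A1, COL1A2, PDGFRB and RGS5 summed to between 21.4 and 84.6 CPM. The summed level of the proliferation markers MKI67 and TOP2A lay between 718 and 939 CPM with control siRNA and between 804 and 879 CPM in the double knockdown, so that the second range fell inside the first.

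Replication genes were well expressed. Their summed level was 4145 ± 165 CPM with control siRNA, 4255 ± 360 with HIF1A siRNA, 4281 ± 301 with HIF2A siRNA and 4450 ± 362 in the double knockdown (SD, n = 3), and the ranges of the 4 groups overlapped. To compare genes with each other, levels were divided by the length of the canonical transcript in kilobases. On this scale with control siRNA, the clamp PCNA was highest at 277 CPM per kb, followed by TK1 (salvage thymidine kinase) at 149, FEN1 (flap endonuclease) at 138, MCM7 at 112 and POLD2 (an accessory subunit of polymerase δ) at 99.9. POLE2, the second subunit of polymerase ε, was lowest at 5.17 CPM per kb, from 94 to 188 reads per control library. The spread between neighbours was often larger than the step between them, as for TK1 (119 to 175 CPM per kb in the 3 control libraries) and FEN1 (111 to 160), which did not separate.

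**Figure D1:**
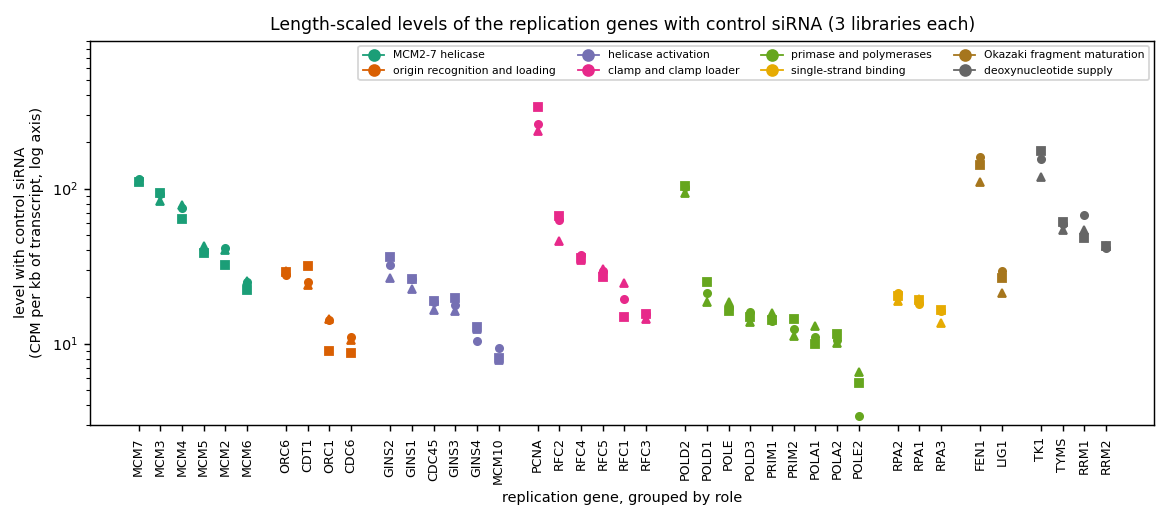
Level of each replication gene with control siRNA in CPM per kb of canonical transcript (log axis), grouped by role, with 1 point for each of the 3 libraries. PCNA is highest at a mean of 277 and POLE2 lowest at 5.17, and the 3 RPA genes lie close together between 15.4 and 20.1.

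The subunits of some complexes differed in level per kb. The 6 MCM2-7 genes ranged from 24.3 (MCM6) to 112 (MCM7) CPM per kb, a 4.61-fold range although the helicase holds 1 copy of each. The 5 RFC genes ranged from 15.2 (RFC3) to 58.6 (RFC2). The RPA genes were more even than the MCM2-7 and RFC genes. RPA1 was at 18.8 ± 0.775, RPA2 at 20.1 ± 1.22 and RPA3 at 15.4 ± 1.60 CPM per kb (SD, n = 3). POLA1 and POLA2 of polymerase α lay closer still, at 11.3 and 10.7 CPM per kb. These levels rest on the annotated canonical transcript, and the isoforms used in RCC4 were not tested.

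After knockdown of HIF1A alone none of the 40 replication genes passed an adjusted p under 0.05 (edgeR's quasi-likelihood test, Benjamini-Hochberg), against 1.41% of all genes tested; 2 (RPA1 and TK1) had an unadjusted p under 0.05, as did 8.57% of all genes, and DESeq2 also called 0 (2.29% of all genes by DESeq2). The median log2 fold change of the 40 genes was 0.054 (all genes 0.003), and 26 lay above 0. The test was precise enough to bound most effects: for 39 of the 40 genes the CI stayed within a 1.5-fold change in either direction, the exception being POLE2 (log2 fold change 0.39, CI -0.09 to 0.87).

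TK1, which phosphorylates thymidine for the salvage route, was among those with the lowest estimates after HIF1A siRNA. Its level was 221, 250 and 170 CPM in control replicates 1 to 3 and 212, 172 and 135 CPM in the matching HIF1A siRNA libraries. The value was lower in each of the 3 pairs while the groups overlapped, and the log2 fold change of -0.31 (CI -0.54 to -0.09) did not pass the test (adjusted p = 0.268, edgeR's quasi-likelihood test). RFC3, a small subunit of the clamp loader, had a log2 fold change of -0.25 (CI -0.52 to 0.03) and was the 1 gene of the 40 whose 3 HIF1A siRNA libraries all lay below all 3 control libraries, as did 4.24% of all genes. RPA1 and RRM2 lay wholly above control, as did 2.86% of all genes.

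Knockdown of HIF2A alone likewise gave 0 calls among the 40 genes by edgeR's quasi-likelihood test, against 0.2% of all genes tested. RPA1 was the 1 gene with an unadjusted p under 0.05 (6.65% of all genes), and DESeq2 called RPA1 alone (0.631% of all genes by DESeq2). The median log2 fold change was -0.004 (all genes 0.000), with 19 genes above 0 and 21 below. For 39 genes the CI stayed within a 1.5-fold change, RPA1 being the exception. MCM2 had the next highest estimate at 0.27 (CI -0.03 to 0.56, adjusted p = 0.764), drawn from paired ratios of 1.02, 1.59 and 1.03, so that replicate 2 carried it. The HIF2A siRNA libraries lay wholly above control for 4 of the 40 genes (MCM2, MCM6, MCM7 and RPA1; 2.44% of all genes) and wholly below for none (2.86% of all genes). GINS3 and PCNA had the lowest estimates, -0.23 (CI -0.54 to 0.07) and -0.20 (CI -0.45 to 0.05).

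In the double knockdown 2 of the 40 genes rose and none fell. These were RPA1, the large DNA-binding subunit of RPA, and RRM2, the regulated small subunit of ribonucleotide reductase. They made up 5% of the 40, while among all genes tested 3.91% rose and 6.46% fell (10.4% in either direction). No difference between these shares was tested, and their order depended on the fit: without replicate 2, 6 of the 40 were called against 12.7% of all genes, and without the replicate term 2 of the 40 against 1.49%. At an unadjusted p under 0.05 there were 9 higher (22.5% of the 40, against 11.5% of all genes) and 2 lower (5%, against 13.8%), that is 27.5% in either direction against 25.3% of all genes. DESeq2 called RPA1, RRM2 and MCM3 (14.2% of all genes by DESeq2). All 3 pairs were higher for 10 genes and lower for 8, against 26.1% and 25.4% of all genes. The median log2 fold change was 0.041 (all genes 0.005), and the median size of change regardless of sign was 0.131 against 0.226 over all genes. Expression level was not matched in that comparison. CIs stayed within a 1.5-fold change for 34 genes, and within a 2-fold change for 38.

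**Figure D2:**
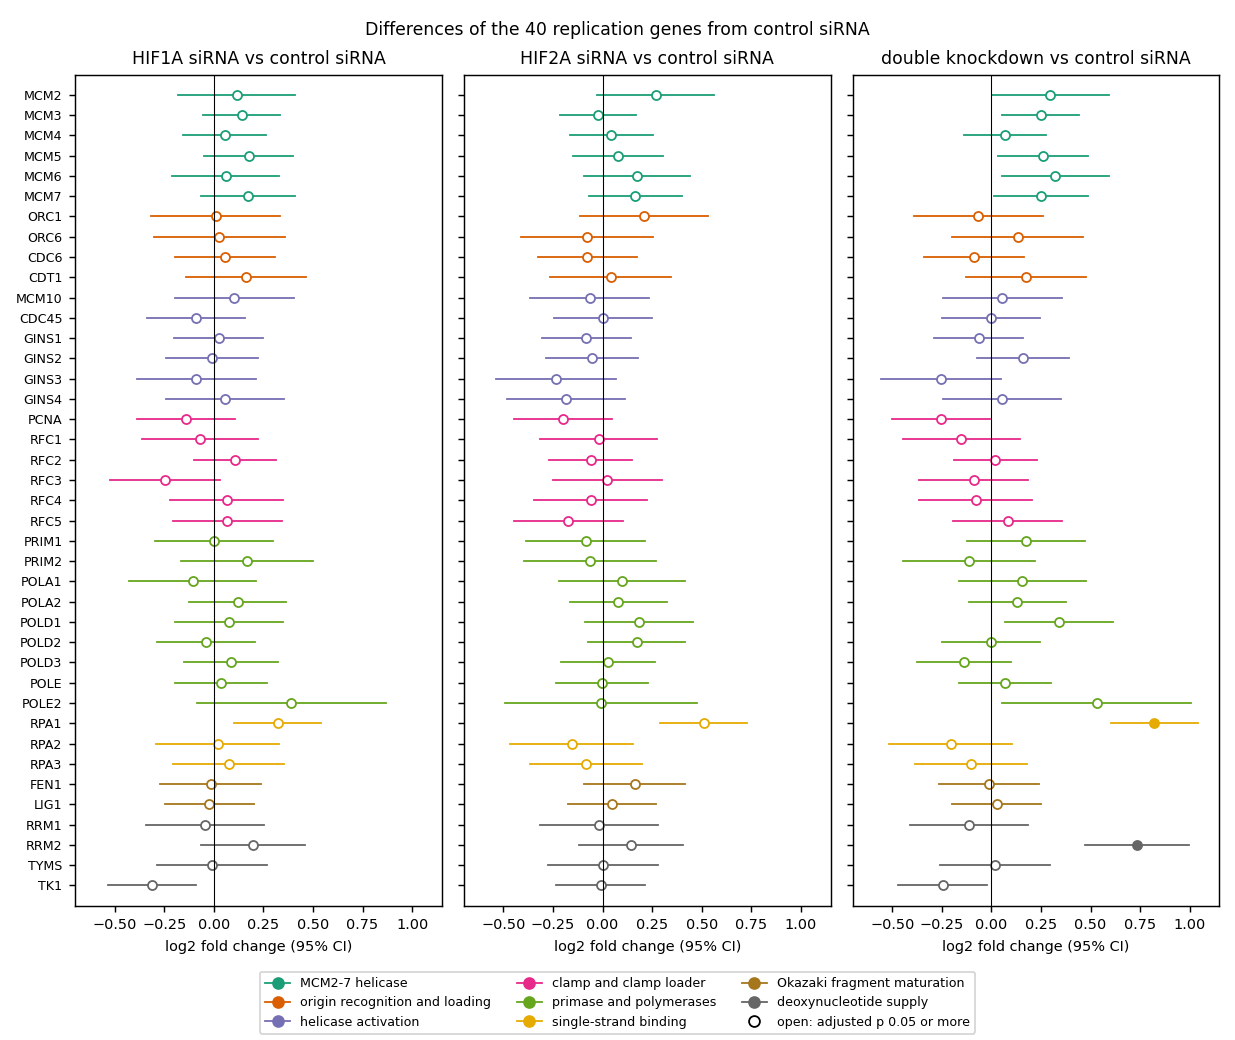
Log2 fold change of each of the 40 replication genes against control siRNA (points) with its 95% CI (lines), coloured by role. Filled points mark calls of edgeR's quasi-likelihood test (adjusted p under 0.05), which were RPA1 and RRM2 in the double knockdown, and no gene with either siRNA alone.

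RPA1 was at 86.8, 92.7 and 93.7 CPM in the 3 control siRNA libraries, at 103, 119 and 119.9 CPM with HIF1A siRNA, at 121, 136 and 132 CPM with HIF2A siRNA and at 161, 144 and 179 CPM in the double knockdown. The 4 groups did not overlap, and they ranked in that order in each of the 3 replicates. In the double knockdown RPA1 rose 1.77-fold (log2 fold change 0.82, CI 0.60 to 1.04, adjusted p = 9.34e-05, edgeR's quasi-likelihood test). With HIF1A siRNA the log2 fold change was 0.32 (CI 0.10 to 0.54, adjusted p = 0.216), and with HIF2A siRNA 0.51 (CI 0.29 to 0.73, adjusted p = 0.0613), higher in 3 of 3 pairs both times without passing the test. The RNA was also higher in the double knockdown than with HIF1A siRNA, by 0.50 on the log2 scale (adjusted p = 0.0236, lost in 8 of 20 alternative fits, among them the fit without the replicate term), while the difference from HIF2A siRNA, 0.31, did not pass (CI 0.09 to 0.53, adjusted p = 0.118). The interaction term, the part of the double knockdown's log2 difference beyond the sum of the single ones, was -0.01 (CI -0.32 to 0.30).

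RPA2 and RPA3, the partners of RPA1 in the trimer, were not called in any comparison. Their log2 fold changes in the double knockdown were -0.20 (CI -0.52 to 0.11) and -0.10 (CI -0.38 to 0.18). The ratio of RPA1 to RPA2 reads, which does not depend on library scaling, was 2.58 to 3.14 in the control libraries, 2.86 to 4.09 with HIF1A siRNA, 3.19 to 6.44 with HIF2A siRNA and 5.29 to 6.66 in the double knockdown. The double knockdown thus lay wholly above control, as did the HIF2A siRNA group. The ratio of RPA2 to RPA3 reads was 0.973 to 1.09 in control and 0.902 to 1.02 in the double knockdown, ranges that overlap. It was 0.805 to 1.14 with HIF1A siRNA and spread more widely with HIF2A siRNA, from 0.575 to 1.33. Per kb of transcript RPA1 reached 33.2 ± 3.60 CPM in the double knockdown, against 17.5 ± 1.43 for RPA2 and 14.3 ± 1.32 for RPA3 (SD, n = 3). In the GENCODE annotation (GRCh38) no exon of another gene overlaps RPA1 and no pseudogene carries its name.

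RRM2 was at 134.5, 139 and 139 CPM in the control siRNA libraries, at 147, 167 and 158 CPM with HIF1A siRNA, at 155, 122 and 182 CPM with HIF2A siRNA and at 246, 203 and 237 CPM in the double knockdown. The 3 double knockdown libraries were above all 9 others, and the HIF2A siRNA group spanned the control values. RRM2 rose 1.66-fold in the double knockdown (log2 fold change 0.73, CI 0.47 to 0.99, adjusted p = 0.00114, edgeR's quasi-likelihood test), a call that was lost without replicate 3 (adjusted p = 0.0532; 1.51e-06 to 0.0532 over 20 alternative fits). Its log2 fold changes with HIF1A siRNA, 0.20 (CI -0.07 to 0.46), and with HIF2A siRNA, 0.14 (CI -0.12 to 0.41), did not pass the test. RRM2 was higher in the double knockdown than with HIF1A siRNA (log2 difference 0.54, adjusted p = 0.0407) and than with HIF2A siRNA (0.59, adjusted p = 0.0116), calls that were lost in 10 and 4 of 20 alternative fits, the fit without the replicate term among them both times. Its interaction estimate of 0.39 had a CI of 0.02 to 0.76 but an adjusted p of 0.999, and 2.39% of all genes had an unadjusted p under 0.05 in that term.

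RRM1, the large catalytic subunit of ribonucleotide reductase, had a log2 fold change of -0.11 in the double knockdown (CI -0.41 to 0.19). The ratio of RRM2 to RRM1 reads was 0.630 to 0.918 in the control libraries, 0.884 to 0.943 with HIF1A siRNA, 0.621 to 1.08 with HIF2A siRNA and 1.28 to 1.51 in the double knockdown. Reads of RRM2 thus exceeded those of RRM1 in all 3 double knockdown libraries and in 1 of the other 9. TYMS, thymidylate synthase, had a log2 fold change of 0.02 (CI -0.26 to 0.29) and TK1 of -0.25 (CI -0.47 to -0.02, adjusted p = 0.155). RRM2 has 3 named pseudogenes and TYMS overlaps ENOSF1 on the other strand, so their counts may hold or lose reads shared with these.

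**Figure D3:**
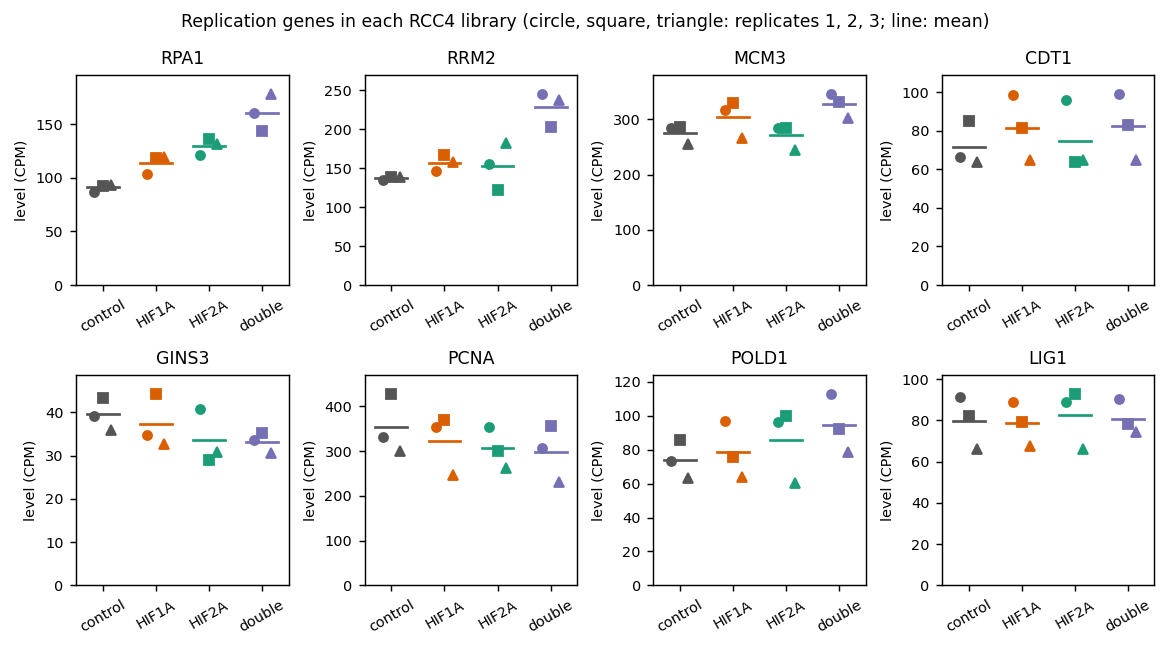
Level in CPM of 8 replication genes in each of the 12 libraries, with circles, squares and triangles for replicates 1, 2 and 3, and lines for group means. RPA1 climbs from 86.8 to 93.7 with control siRNA to 144 to 179 in the double knockdown and RRM2 from 134.5 to 139 to 203 to 246, while the groups of PCNA, POLD1, LIG1 and CDT1 overlap and replicate 3 is often lowest.

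The MCM2-7 helicase genes had estimates on the same side. All 6 were above 0 in the double knockdown, with log2 fold changes of 0.30 (MCM2), 0.25 (MCM3), 0.07 (MCM4), 0.26 (MCM5), 0.32 (MCM6) and 0.25 (MCM7), and none passed the test (adjusted p from 0.0956 to 0.707, edgeR's quasi-likelihood test). MCM3 was at 285, 286 and 255 CPM with control siRNA and at 346, 331 and 302 CPM in the double knockdown. It was higher in 3 of 3 pairs and its groups did not overlap, which held for 4 of the 40 genes (MCM3, POLE2, RPA1 and RRM2) and for 7.08% of all genes. With HIF1A siRNA and HIF2A siRNA the estimates of the 6 genes ran from 0.05 to 0.18 and from -0.02 to 0.27. The upper bounds of their CIs in the double knockdown lay between 0.28 and 0.59. Without replicate 2, MCM2, MCM6 and MCM7 passed the test (12.7% of all genes did), and without HIF2A siRNA replicate 2 MCM2 and MCM3 did (17.6%). MCM6 passed without double knockdown replicate 2 (5.97% of all genes), and MCM3 with DESeq2 (14.2% of all genes).

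Genes that build the origin complex and start the helicase showed no shared direction. ORC1 and ORC6 (origin recognition), CDC6 and CDT1 (loading of MCM2-7) had log2 fold changes between -0.09 and 0.17 in the double knockdown. CDT1 was at 66.2, 84.8 and 63.5 CPM with control siRNA and at 99.2, 82.7 and 64.8 CPM in the double knockdown, so that replicate 1 alone set its estimate of 0.17 (CI -0.13 to 0.48, adjusted p = 0.486). MCM10, CDC45 and the 4 GINS genes lay between -0.25 and 0.16, with 3 of 6 above 0. GINS3 was at 39.2, 43.4 and 35.9 CPM with control siRNA and at 33.6, 35.1 and 30.6 CPM in the double knockdown, lower in 3 of 3 pairs and with no overlap, as were 8.55% of all genes. Its log2 fold change of -0.25 (CI -0.56 to 0.05) did not pass the test (adjusted p = 0.287).

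The sliding clamp and its loader had a median log2 fold change of -0.08 in the double knockdown, with 2 of 6 genes above 0. PCNA was at 332, 428 and 301 CPM with control siRNA, at 353, 370.4 and 247 CPM with HIF1A siRNA, at 355, 301 and 263 CPM with HIF2A siRNA and at 308, 356 and 232 CPM in the double knockdown. It was lower than its paired control in 3 of 3 pairs of the double knockdown, but the groups overlapped and the log2 fold change of -0.25 (CI -0.50 to -0.01) did not pass the test (adjusted p = 0.184). PCNA has 3 named pseudogenes. The 5 RFC genes, which encode the loader, lay between -0.15 (RFC1) and 0.08 (RFC5). The Okazaki fragment genes were not called, with FEN1 at -0.01 (CI -0.27 to 0.24) and LIG1 at 0.03 (CI -0.20 to 0.25). LIG1 was at 91.3, 82.3 and 66.2 CPM with control siRNA and at 90.3, 78.3 and 74.2 CPM in the double knockdown.

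Among the 9 primase and polymerase genes, 6 had estimates above 0 in the double knockdown and none was called. POLE2 had the highest at 0.53, on 94 to 297 reads per library in these groups, and its CI of 0.06 to 1.01 was the widest of the 40. It was at 5.76, 9.43 and 11.03 CPM with control siRNA and at 11.3, 11.4 and 14.5 CPM in the double knockdown. POLD1, the catalytic subunit of polymerase δ, was at 73.1, 85.6 and 63.5 CPM with control siRNA and at 113, 91.9 and 78.7 CPM in the double knockdown, higher in 3 of 3 pairs with overlapping groups. Its log2 fold change was 0.34 (CI 0.07 to 0.62, adjusted p = 0.102), while that of POLD2 in the same enzyme was 0.00 (CI -0.25 to 0.25) and that of POLD3 -0.14 (CI -0.38 to 0.10). POLE, the catalytic subunit of polymerase ε, was at 0.07 (CI -0.16 to 0.30).

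The single knockdowns were also compared with each other and with the double knockdown. Between HIF1A siRNA and HIF2A siRNA none of the 40 genes was called (2% of all genes were), 1 had an unadjusted p under 0.05 (TK1, log2 difference -0.30, CI -0.53 to -0.08; 12.1% of all genes) and DESeq2 called 0 (3.34% of all genes). Between the double knockdown and HIF1A siRNA the calls were RPA1 and RRM2 (1.46% of all genes), and between the double knockdown and HIF2A siRNA the call was RRM2 (4.17% of all genes). None of these 3 calls was kept in the fit without the replicate term. In the interaction term none of the 40 genes was called by edgeR or DESeq2, RRM2 was the 1 gene with an unadjusted p under 0.05, and edgeR called 0% and DESeq2 0.0846% of all genes. The CI of the interaction stayed within a 1.5-fold change for 31 genes. Comparisons that share the control siRNA or the double knockdown libraries are not independent of each other.

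Replicate number accounted for more of the variation of the replication genes than siRNA did. Splitting the variance of log2 CPM over the 12 libraries, summed over the 40 genes, gave 50.3% to the replicate, 24.3% to the siRNA group and 25.4% to the remainder, close to the 49.8%, 25.8% and 24.4% of all genes. The replicate was the largest part for 22 of the 40 genes and the siRNA group for 6. RPA1 stood out with 91.3% in the siRNA group and 3.84% in the replicate, and RRM2 with 80.0% and 5.83%. RFC2 was the reverse case, with 92.9% in the replicate and 4.53% in the siRNA group. The replication genes had a median SD of 0.194 log2 CPM against 0.325 over all genes. The sets were not matched for expression level, and the part that level has in this difference was not tested.

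Replicate 3 was low for TK1, RFC2, GINS2, FEN1, POLD1 and PCNA, whose mean log2 deviations there lay between -0.38 and -0.28, and high for RFC1 (0.38), POLA1 (0.36) and POLE2 (0.25). Replicate 2 was low for ORC1 (-0.49). Measured from the gene's mean over the 12 libraries, each of these shifts had the same sign in all 4 groups, the control included. For POLE2 the replicate 3 library with HIF1A siRNA (10.7 CPM) nevertheless lay below that of replicate 2 (13.7 CPM). The replicate term of the test takes up what the groups share. Across the 40 genes the replicate 3 deviation went with log2 transcript length (Pearson's r = 0.50, Spearman's rho = 0.57); the genes share their libraries, so this is a description, and the part that RNA quality or growth state may have in it was not tested.

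**Figure D4:**
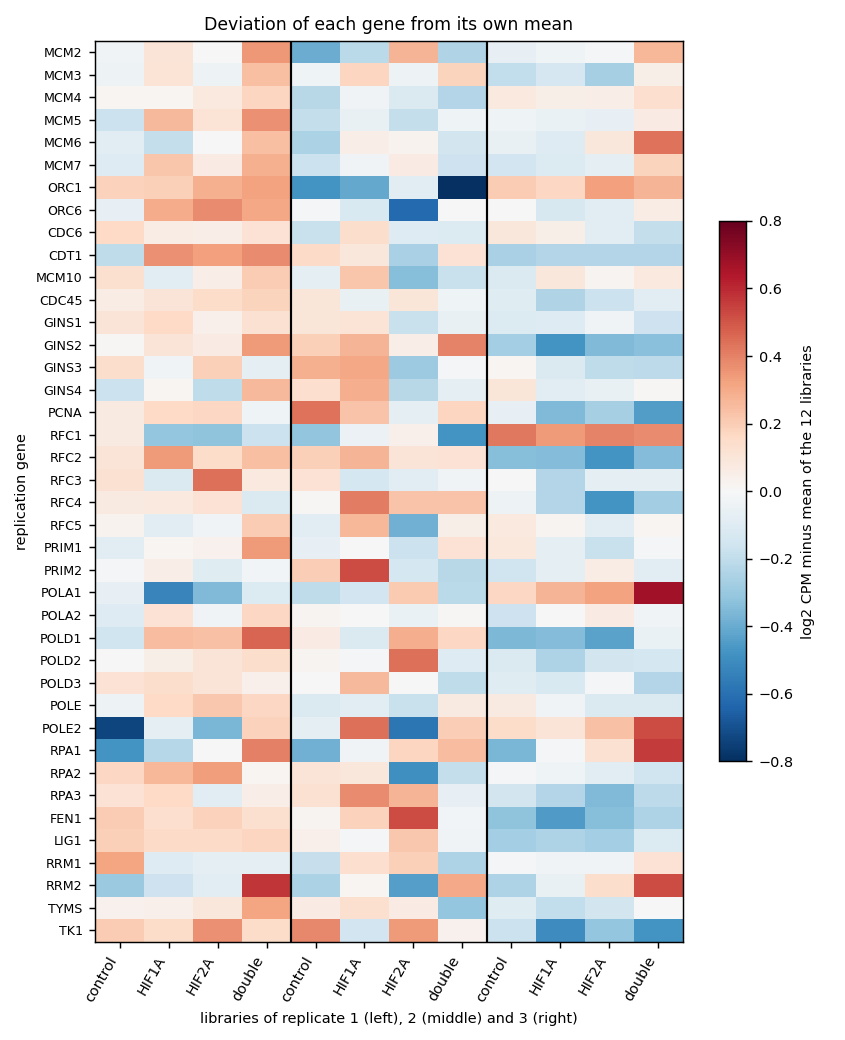
Log2 CPM of each replication gene in each library minus the gene's mean over the 12 libraries (red above, blue below), with libraries ordered by replicate and genes by role. RFC2 and FEN1 are blue in all 4 libraries of replicate 3 and RFC1 is red there, while RPA1 and RRM2 are red in the double knockdown library of each replicate.

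The genes around the replication machinery were examined in 6 further lists, of which all 186 genes were tested. With HIF1A siRNA 0 of them were called by edgeR's quasi-likelihood test or by DESeq2 (1.41% and 2.29% of all genes), 13 had an unadjusted p under 0.05 (8.57% of all genes), and with HIF2A siRNA 1 was called (0.2% of all genes), CCND1 (cyclin D1, the partner of CDK4 and CDK6), which fell by 0.64 on the log2 scale (adjusted p = 0.0116, lost in 6 of 21 alternative fits). In the double knockdown 20 of the 186 were called, against 10.4% of all genes. All 20 calls were lost in the fit without replicate pairing, where 1.49% of all genes were called. Without replicate 1, 5 were kept (4.27% of all genes called), and without replicate 3, 5 were kept (2.44% of all genes called). The other 42 replication genes had 0 higher and 2 lower in the double knockdown, with a median of 0.005. DTL, the PCNA-guided ubiquitin ligase adaptor that removes CDT1, fell by 0.41 (adjusted p = 0.0357), and POLE3, a histone-fold subunit of polymerase ε, fell by 0.39 (adjusted p = 0.0275). The calls of DTL and POLE3 were lost in 11 and 8 of 20 alternative fits. TIPIN, of the fork protection complex, had a log2 fold change of 0.61 and an adjusted p of 0.0506. WDHD1 had -0.46 (adjusted p = 0.0823). Of 28 nucleotide supply genes 1 rose and 0 fell: CMPK1, the UMP-CMP kinase, rose by 0.50 (adjusted p = 0.00852). That call was lost in 5 of 20 alternative fits. RRM2B, the p53-induced alternative to RRM2, had a log2 fold change of -0.43 (adjusted p = 0.0728), IMPDH1 of -0.44 and ADSS of -0.43, none past the test.

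Of 36 regulators of entry into S phase 2 rose and 5 fell in the double knockdown, 19.4% of the list against 10.4% of all genes (3.91% higher and 6.46% lower), with a median of 0.079. This list, like the others, was chosen with earlier results of these data known, so its share is a description. CCND1 fell from 501 ± 150 to 259 ± 78.7 CPM (SD, n = 3), a log2 fold change of -0.95 (adjusted p = 1.37e-05, edgeR's quasi-likelihood test), lower in 3 of 3 pairs. E2F7, a repressing E2F, fell by 0.94 (adjusted p = 0.000379) and CDK6 by 0.63 (adjusted p = 0.00758), while TFDP2, a dimerisation partner of E2F, rose by 0.51 (adjusted p = 0.0117). The calls of CCND1, E2F7, CDK6 and TFDP2 were lost in 1, 1, 4 and 6 of 20 alternative fits. The other calls of this list, named after their values were seen, were E2F1 (activating E2F, 0.44), CDKN1A (p21, -0.44) and RBL2 (p130, -0.37). These 3 calls were lost in 6, 6 and 14 of 20 alternative fits. The genes that fell thus included both activators (CCND1, CDK6) and inhibitors (E2F7, CDKN1A, RBL2) of S-phase entry.

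In the 29 genes of the S-phase checkpoint and homologous recombination 2 rose and 2 fell in the double knockdown (13.8% of the list, median -0.072), and the calls of the mitosis and p53 lists made up 9.38% and 15.8%, all beside the 10.4% of all genes. UNG, the uracil-DNA glycosylase, rose by 0.35 (adjusted p = 0.0414, edgeR's quasi-likelihood test), a call lost in 13 of 20 alternative fits. RAD54B fell by 0.73 (adjusted p = 0.00439) and BRIP1, a helicase, by 0.53 (adjusted p = 0.0231). The calls of RAD54B and BRIP1 were lost in 2 and 7 of 20 alternative fits. Of 32 mitosis genes BIRC5 (survivin) rose by 0.32, and ANLN (anillin) and KIF11 (a spindle motor) fell by 0.60 and 0.48, with a median of -0.061. The calls of BIRC5, ANLN and KIF11 were lost in 14, 3 and 6 of 20 alternative fits. Of 19 p53 target genes TNFRSF10B rose by 0.52, and BTG2 and FAS fell by 0.88 and 0.48, with a median of -0.139. All of these had an adjusted p under 0.05. The calls of TNFRSF10B, BTG2 and FAS were lost in 4, 2 and 6 of 20 alternative fits. NCAPH (condensin) had a log2 fold change of -0.33 (adjusted p = 0.0540) and GADD45A of -0.46 (adjusted p = 0.0879), neither past the test.

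**Figure D5:**
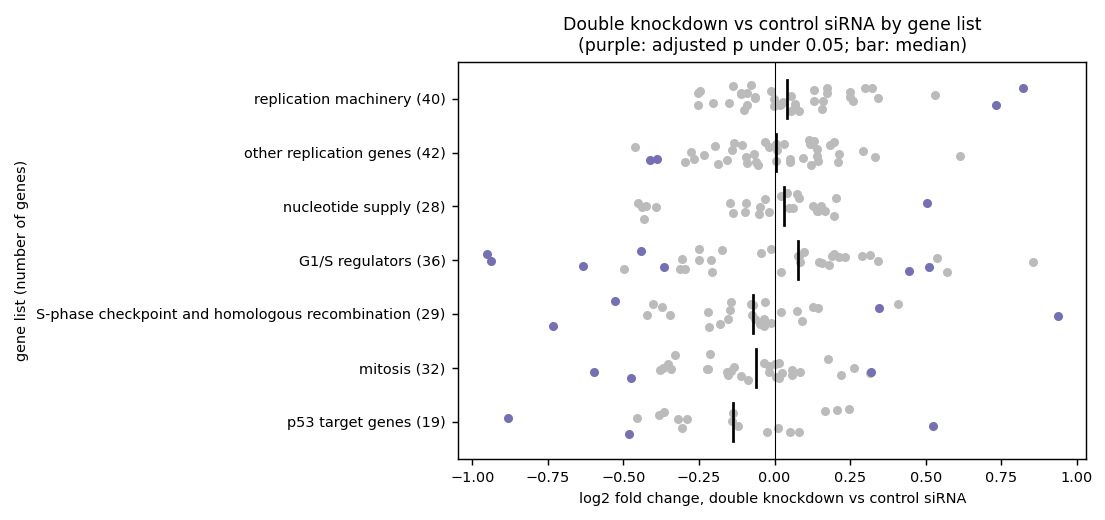
Log2 fold change in the double knockdown against control siRNA for each gene of the replication machinery and of 6 related lists, with purple points for an adjusted p under 0.05 and bars for list medians. The medians lie between -0.139 (p53 target genes) and 0.079 (regulators of S-phase entry), and calls fall on both sides of 0 in 4 of the 7 lists.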

How the data were processed

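RNA of 12 RCC4 samples (4 siRNA groups, 3 replicates each) was sequenced from poly(A)-selected, strand-directional libraries. The authors trimmed reads with Trim Galore (0.3.3), aligned them to GRCh37 (hg19) with HISAT2 (2.05), removed non-uniquely mapped fragments with Picard (2.0.1), counted reads per UCSC gene with HTSeq (0.5.4p3) in its strict intersection mode and deposited these counts unnormalized. The strand setting of the counting is not given in the sources used here. Reads of overlapping genes and of pseudogene copies may therefore be shared or lost: 11 of the 40 replication genes share exon sequence with a gene on the other strand, 4 with one on the same strand and 10 have a named pseudogene.

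The counts were tested with edgeR 4.0.16 (R 4.3.3) after a filter for low counts (minimum count 10, minimum total 15) and TMM normalization (factors 0.980 to 1.02). A single quasi-likelihood fit of all 12 libraries, with siRNA group and replicate number as terms, gave 7 comparisons with Benjamini-Hochberg adjustment over 13000 genes; calls have an adjusted p under 0.05. The replicate term follows the study's methods, which pair conditions by biological replicate. Deviations from the group means of same-numbered libraries correlated at r = 0.099 to 0.813 (17 of 18 above 0.1), those of other pairs at r = -0.724 to 0.527 (9 of 36 above 0.1). The deviations of a group sum to 0 for each gene, so these correlations depend on each other and are a description. CPM are counts per 1000000 of the TMM-scaled library; ratios of paired libraries used an offset of 0.5 CPM. CIs are 95% intervals of the fit. Transcript lengths and overlaps came from GENCODE v44. The code was tested on simulated counts before use. No 2 libraries of a group were near identical.

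Alternatives were DESeq2 (1.42.0) and its size factors, other count filters, no replicate term, a fit of the 9 libraries without the double knockdown, and leaving out replicates or single libraries. Members and gene lists were chosen with earlier results of these data known. Genes named with values in every library are those called in any comparison and 1 of each of the 8 roles, the highest and lowest expressed genes, and in the related lists up to 4 genes with the smallest adjusted p each in the double knockdown, with 1 exception; others are named after their values were seen. The exception is 1 gene of the checkpoint and recombination list, whose values are not reported here.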

Additional observations from a re-analysis of the deposited data

How the results depend on the processing

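With 3 replicates per group and 13263168 to 20451433 counts per library, log2 differences of the replication genes had a median standard error of 0.127, and in the double knockdown estimates of 0.30 (MCM2), 0.32 (MCM6) and 0.34 (POLD1) did not pass the test, so changes of that size could go undetected here. RPA1 in the double knockdown kept an adjusted p under 0.05 in all 20 alternative fits (log2 fold change 0.77 to 0.93, adjusted p up to 0.0271) and RRM2 in 19 of 20 (0.65 to 0.82), the loss being without replicate 3. In the fit without the replicate block the double knockdown had the same 2 calls against control siRNA, but 0 against HIF1A siRNA and 0 against HIF2A siRNA in place of 2 and 1, while the calls among all genes fell to 1.49%, 0.0615% and 0.685%. DESeq2 in place of edgeR gave 1 call with HIF2A siRNA (RPA1, against 0.631% of all genes). It gave 2 for the double knockdown against HIF2A siRNA (MCM3 and RRM2, against 6.29% of all genes). Omitting the filter on low counts gave 1 with HIF2A siRNA (RPA1, against 0.258% of all genes).

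When single libraries or replicates were left out, 0 to 1 replication genes were called with HIF2A siRNA (RPA1 without double knockdown replicate 2, 0.227% of all genes). In the double knockdown against control siRNA the number ranged from 1 (RPA1 without replicate 3, 2.44% of all genes) to 6. The 6 were MCM2, MCM6, MCM7, POLD1, RPA1 and RRM2, without replicate 2 (12.7% of all genes). Against HIF1A siRNA the double knockdown had from 0 to 3 and against HIF2A siRNA from 0 to 2. The calls among all genes in these fits ranged from 0.2% to 3.41% against HIF1A siRNA and from 1.31% to 5.24% against HIF2A siRNA. Without HIF2A siRNA replicate 2 the double knockdown had 5 calls against control siRNA (MCM2, MCM3, POLD1, RPA1 and RRM2; 17.6% of all genes). Leave-one-out medians of the 40 genes ranged from -0.0228 to 0.105 with HIF1A siRNA, from -0.0148 to 0.1001 in the double knockdown against control siRNA and from 0.000631 to 0.0998 for the double knockdown against HIF2A siRNA. Each alternative fit covered all members, but single estimates were followed for only some. These were RPA1 and RRM2 in 6 comparisons, and MCM3, CDT1, GINS3, PCNA, POLD1 and LIG1 in the double knockdown against control siRNA. Of these, the estimates that changed sign were uncalled ones: leaving out replicates or libraries gave CDT1 -0.0208 to 0.340 and LIG1 -0.0443 to 0.0945 in the double knockdown, and RRM2 -0.138 to 0.189 between HIF1A siRNA and HIF2A siRNA. The cause of these changes was not tested.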
